A study of Mus musculus with 23 samples.

Results

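BDB (1,4-butanediol dibenzoate), a dibenzoate plasticizer proposed in place of the phthalate DEHP, was compared with its vehicle in TM4 cells, an immortalized mouse Sertoli cell line. The comparison took in every array labelled BDB or DMSO, which were 8 of the 23 arrays of the series. The 4 BDB samples were exposed to 100 μM BDB in 1% DMSO for 48 hr. The 4 DMSO samples were kept for the same 48 hr in 1% DMSO alone. MEHP, DINCH and DOM (4 arrays each) and DOS (3 arrays) were all at 100 μM in 1% DMSO for 48 hr. They are used below only where they are set beside BDB. MEHP is the monoester that DEHP is hydrolysed to, DINCH a cyclohexane dicarboxylate in commercial use, DOM dioctyl maleate and DOS dioctyl succinate.

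Each RNA was hybridized to 1 array of a 1-colour platform, and the arrays lay on 3 slides. A level below is the log2 signal of a gene's brightest probe minus the 75th percentile of its array, so a level of 0 is the 75th percentile, and levels of different probes are not compared. The 75th percentile signal was 222 to 290 on the BDB arrays and 234 to 320 on the DMSO arrays, and 45.5 to 48.2% and 46.5 to 51.4% of probes, respectively, read well above background. Because BDB arrays lay in slide rows 1 and 3 and DMSO arrays in rows 2 and 4, row and treatment cannot be told apart between them. The MEHP and DINCH arrays also lay in rows 1 and 3, and the DOM and DOS arrays in rows 2 and 4. Of 27 Sertoli cell markers, 14 were detected on all 4 DMSO arrays, among them Gata4, Sox9, Dhh and Inhbb, whereas Wt1, Amh, Fshr, Sox8 and Cldn11 were on none of the 8 arrays. Markers of other cells detected on all DMSO arrays were 5 of 7 for peritubular myoid cells (Acta2 and Tagln among them), 1 of 7 for Leydig cells, 3 of 12 for germ cells, 2 of 7 for macrophages and 2 of 6 for endothelial cells. TM4 is 1 immortalized line, and fewer cells and less RNA per cell cannot be told apart in such samples.

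The question was whether BDB changed any transcript relative to the vehicle. The test covered 24291 probes, of which 8688 carried no gene symbol and the others named 11969 genes, and 0 genes passed an adjusted p below 0.05 with more than a 1.5-fold difference (limma, 2-sided, Benjamini-Hochberg over all tested probes). The smallest adjusted p was 0.0682, shared by 20 probes. At an unadjusted p below 0.05, 1220 probes were higher in BDB and 2274 were lower. With quantile normalization these counts were 1557 and 1989. When slide was fitted as a block, 100 genes passed, 59 higher and 41 lower, and with the replicate number as a block 0 passed. Of the tested probes, 75.3% had a 95% interval that lay wholly within 1.5-fold of no change. The median difference over the 11965 genes with a tested brightest probe was -0.03 on the log2 scale. Of these genes 42.8% were above 0, and each count above or below 0 that follows is to be read against that share. The words higher and lower below give the sign of a difference, and no gene passed the test without the block.

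Among the gene lists examined, the replication-dependent histone genes had the largest median difference. These genes encode the core histones H2A, H2B, H3 and H4 and the linker histone H1, lie in clusters, and are switched on in S phase when new DNA is packed into nucleosomes. Most of their transcripts end in a stem-loop and carry no poly(A) tail, and how much of each the labelled cRNA represented was not tested. Their promoters commonly hold CCAAT boxes and a TATA box, and H2B promoters an octamer, ATTTGCAT. This list was put together after 4 of its members had been seen among the genes with the smallest p, so its shift is a description. The promoters of H2bc3, one of those 4, and of the linker histone gene H1f4 are shown with these motifs in capitals (the letters CCAAT for the first box, TATAAA for the TATA box and the octamer, on either strand), each as the 250 bases before the RefSeq start in GRCm38.p6. H2bc3 is chr13:23746484-23746733 on the + strand, and H1f4 is chr13:23622559-23622808 on the - strand.
H2bc3: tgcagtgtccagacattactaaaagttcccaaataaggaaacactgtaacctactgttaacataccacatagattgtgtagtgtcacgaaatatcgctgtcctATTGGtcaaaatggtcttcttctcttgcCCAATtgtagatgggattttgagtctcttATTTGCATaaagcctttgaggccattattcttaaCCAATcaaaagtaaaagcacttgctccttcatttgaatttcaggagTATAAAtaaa
H1f4: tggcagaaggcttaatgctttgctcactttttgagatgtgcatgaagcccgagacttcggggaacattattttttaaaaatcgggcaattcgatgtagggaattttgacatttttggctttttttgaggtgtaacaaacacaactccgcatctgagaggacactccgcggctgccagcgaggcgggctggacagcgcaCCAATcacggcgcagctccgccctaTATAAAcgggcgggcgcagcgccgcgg

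Of the 36 tested histone genes, 32 had 33 promoters in the RefSeq table. CCAAT was found in 27 of the 33, TATAAA in 16 and ATTTGCAT in 9. Among all 32851 promoters of the table, 33.8% held CCAAT, 12.4% TATAAA and 1.6% ATTTGCAT. A match is a description of the sequence, and no binding was measured.

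Of 63 clustered histone genes, 44 were on the array and 36 were tested. The BDB mean was above the DMSO mean for 33 of the 36, where it was for 42.8% of all genes, with a median difference of 0.60 on the log2 scale against -0.03 for all genes. At an unadjusted p below 0.05, 28 were higher in BDB, where 5.51% of all tested genes were, and 0 were lower, where 10.8% of all genes were. For 25 of the 36, every BDB array read above every DMSO array, against 3.29% of all genes. With slide as a block 16 of them passed the adjusted test, against 0.426% of all genes that passed and were higher. Without the 6 members among the 20 leading genes, 30 remained, 27 of them above 0, and the median was 0.54.

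The difference ran through all classes of histone. H3c14, an H3 gene, had levels of 2.82, 2.86, 2.71 and 2.58 on the DMSO arrays and 3.72, 3.57, 3.38 and 3.61 on the BDB arrays. The arrays did not overlap, and the difference was 0.83 ± 0.10 (SE, n = 4 and 4; limma adjusted p = 0.0682, 0.0463 with slide as a block). H2bc3, an H2B gene, read -2.67, -2.57, -2.66 and -2.66 in DMSO and -1.78, -1.89, -2.13 and -1.97 in BDB. Its groups were also separate, by 0.69 ± 0.09. H1f4, which encodes a linker histone, read 5.19, 5.16, 4.98 and 4.66 in DMSO and 5.97, 6.05, 5.45 and 5.85 in BDB. The lowest BDB array stood above the highest DMSO array, and the difference was 0.83 ± 0.16. H4c12 read 7.35, 7.33, 7.20 and 7.01 in DMSO and 7.94, 7.81, 7.70 and 7.95 in BDB. This H4 gene differed by 0.63 ± 0.11, and a further probe for it by 0.68.

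By class, the median difference was 0.76 for the 4 H1 genes, 0.65 for the 11 H2A genes, 0.39 for the 6 H2B genes, 0.36 for the 7 H3 genes and 0.62 for the 8 H4 genes. It was 0.56 for the 29 genes of chromosome 13 and 0.62 for the 7 of chromosome 3, where the other cluster lies. H2ac18, H2bc4 and H4c8 had differences of -0.06, -0.10 and -0.14, and their arrays overlapped. For H4c9 the brightest probe gave 0.03 and another probe 0.56. Coding sequences within a class are nearly identical, so the H2A probes in particular may read the same transcripts and do not count as separate observations. A repeat of the count without each array in turn gave 27 to 29 genes at an unadjusted p below 0.05, and the median was 0.51 on slide 1, 0.46 on slide 2 and 0.92 on slide 3. The rank of the 36 genes is seen in the plot of their differences and intervals.

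**Figure D1:**
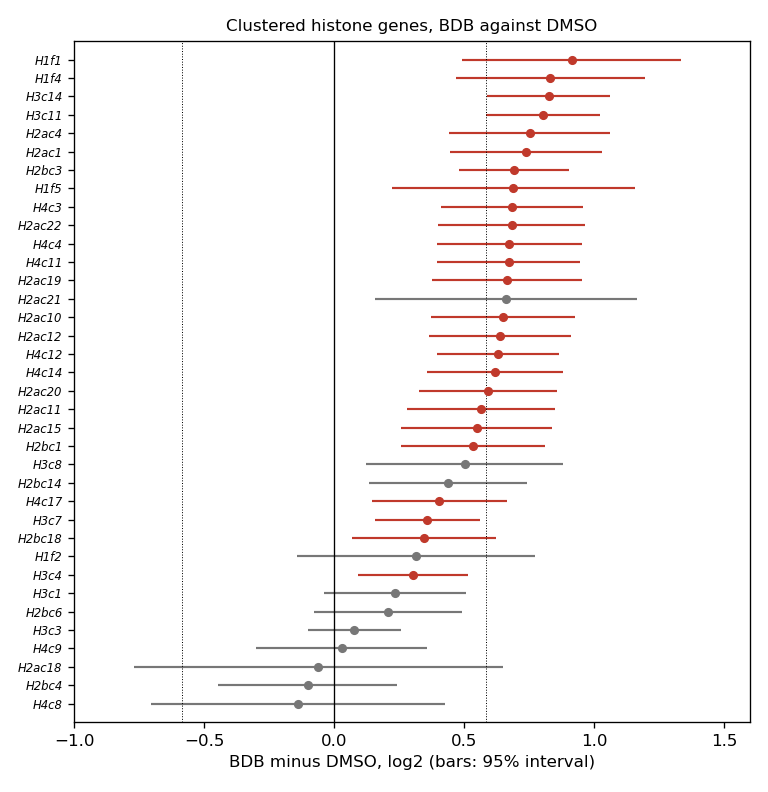
Difference between the BDB and DMSO means (log2, x axis) for each of the 36 tested clustered histone genes, with its 95% interval from limma (bars). Red marks genes whose 4 BDB arrays all read above the 4 DMSO arrays, and dotted lines mark 1.5-fold. Most genes lie between 0.30 and 0.91, and 3 lie below 0.

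The other genes of chromosome packaging and S phase did not shift to the same extent. Of 11 genes listed as replacement histones, 5 were above 0 and the median was -0.00. Many such genes are expressed outside S phase and have poly(A) tails, but this was not checked for each member, H2aw and H2ax among them. H2aj, an H2A variant gene, was higher by 0.67 ± 0.13 with no overlap, although another probe for it gave 0.20. H2aw went the other way, with a difference of -0.51 ± 0.17 and overlap. Of 13 genes for the factors that process histone transcripts, 2 were above 0 and the median was -0.08. Lsm11, a subunit of the particle that cuts histone transcripts, was higher by 0.34 ± 0.11. Cstf2 and Srrt, which act in transcript cleavage and export, differed by -0.32 ± 0.11 and -0.35 ± 0.13. Slbp, which encodes the stem-loop binding protein, differed by -0.22 ± 0.13, with overlap. DNA replication genes had a median of 0.02, with 6 of 46 higher and 1 lower at an unadjusted p below 0.05, against 5.51% and 10.8% of all genes. Tk1, thymidine kinase, was higher by 0.70 ± 0.20, Prim1, a primase subunit, by 0.36 ± 0.11, and Mcm2, a helicase subunit, differed by -0.52 ± 0.13. Of 34 mitotic genes 29 were above 0, with a median of 0.09, and only Ect2 had a p below 0.05 (0.29 ± 0.12).

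The histone difference was also read against the arrays of the other compounds. The mean level of the 36 genes was 3.38 to 3.56 on the BDB arrays. It was 2.76 to 3.09 on DMSO, 2.87 to 3.02 on MEHP, 2.57 to 2.99 on DINCH, 2.93 to 3.13 on DOS and 1.24 to 1.85 on DOM. Each of the 4 BDB arrays thus stood above all 19 other arrays. In direct comparisons, 12 of 36 genes were called higher in BDB than in MEHP, against 1.02% of all tested genes, and 24 of 36 higher than in DINCH, against 4.01%. Against DOM it was 30 of 38, against 11.7%, and 5 were called lower, against 13%. Against the 3 DOS arrays 1 of 36 was called higher (0.0168% of all genes) and 0 lower (0.0252%), and 29 were higher at an unadjusted p below 0.05 (7.14%). H3c14 was higher than in MEHP by 0.84 (95% interval 0.61 to 1.07, limma adjusted p = 0.008), and H2bc3 by 0.83 (0.62 to 1.05, adjusted p = 0.00645). All of these comparisons use the same 4 BDB arrays.

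**Figure D2:**
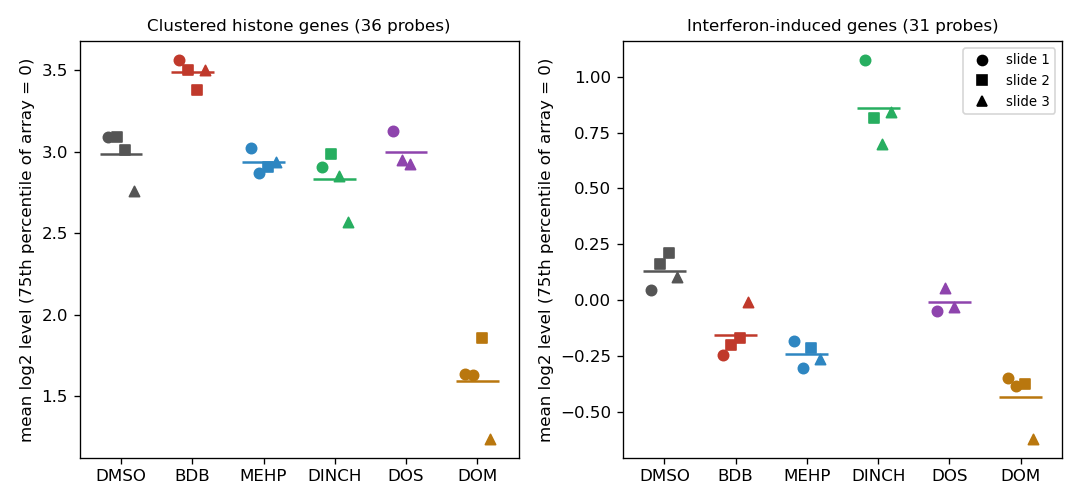
Mean log2 level on each of the 23 arrays (y axis, with the 75th percentile of an array at 0) of the 36 clustered histone genes (left) and the 31 interferon-induced genes (right), by group, with slide as the marker shape and the group mean as a line. The 4 BDB arrays lie at 3.38 to 3.56 in the left panel, above every other array. In the right panel they lie between -0.25 and -0.01, below the 4 DMSO arrays and beside those of MEHP, and their range meets that of DOS.

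Interferon-induced genes shifted in the opposite direction. These genes encode antiviral proteins that cells make in response to interferon, and many carry an element near their start in which GAAA is followed by any pair of bases and GAAA again. The promoters of Ifit1, the gene of the group with the smallest p, and of Isg15, a ubiquitin-like modifier, are shown for this element, which is in capitals on either strand, including overlapping matches. They are the 250 bases before the RefSeq start in GRCm38.p6, at chr19:34640639-34640888 on the + strand and chr4:156200819-156201068 on the - strand.
Ifit1: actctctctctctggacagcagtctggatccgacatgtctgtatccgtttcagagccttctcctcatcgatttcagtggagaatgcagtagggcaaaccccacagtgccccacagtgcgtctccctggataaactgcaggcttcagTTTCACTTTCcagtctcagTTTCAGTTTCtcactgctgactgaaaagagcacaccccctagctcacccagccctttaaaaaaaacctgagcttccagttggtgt
Isg15: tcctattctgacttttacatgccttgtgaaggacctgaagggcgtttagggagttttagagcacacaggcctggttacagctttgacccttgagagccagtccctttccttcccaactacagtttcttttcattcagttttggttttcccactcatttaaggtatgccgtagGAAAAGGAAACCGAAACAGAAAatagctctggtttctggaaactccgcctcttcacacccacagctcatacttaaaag

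The element was found in 10 of the 31 RefSeq promoters of the 25 tested genes of the group that had one, and in 2.98% of all promoters. Of 31 tested interferon-induced genes, 26 were below 0, where 42.8% of all genes were above 0, and the median was -0.27. At an unadjusted p below 0.05, 15 were lower, where 10.8% of all genes were, and 0 were higher, where 5.51% of all genes were. In 11 every BDB array read below every DMSO array, against 8.66% of all genes, and with slide as a block 4 passed as lower, against 0.234%. Without the 3 members among the 20 leading genes the median was -0.24. The count at an unadjusted p below 0.05 lay between 11 and 16 when each array was left out in turn.

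Ifit1, which binds viral RNA, read 1.17, 1.07, 1.07 and 1.20 in DMSO and 0.42, 0.42, 0.11 and 0.48 in BDB. The groups were far apart for their spread, with a difference of -0.77 ± 0.10 (limma adjusted p = 0.0682, 0.0463 with slide as a block). Oasl2, a member of the oligoadenylate synthetase family, read 0.12, 0.13, 0.15 and 0.60 in DMSO and -0.86, -0.57, -0.63 and -0.34 in BDB. It differed by -0.85 ± 0.14, and the DMSO array of slide 3 stood above the other DMSO arrays. Gbp3, a guanylate-binding GTPase, differed by -0.64 ± 0.12, and Isg15 by -0.51 ± 0.12. Isg15 read 4.90, 4.77, 4.82 and 4.35 in DMSO and 4.29, 4.21, 4.14 and 4.18 in BDB, so that a single DMSO array came near the BDB arrays. Ccl5, a chemokine that interferon also induces, differed by -0.54 ± 0.11. Of 16 antigen presentation genes 14 were below 0, where 42.8% of all genes were above 0, with a median of -0.17. H2-K1, a class I heavy chain, differed by -0.25 ± 0.08. Bst2 and Isg20 had differences of 0.25 and 0.17.

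**Figure D3:**
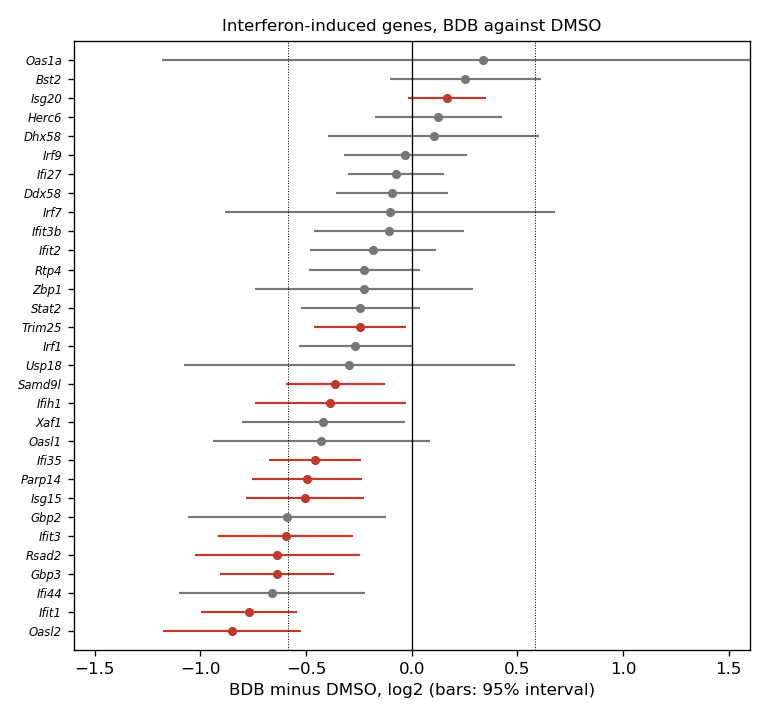
Difference between the BDB and DMSO means (log2, x axis) of the 31 tested interferon-induced genes, with 95% intervals from limma (bars). Red marks genes whose arrays did not overlap between groups, and dotted lines mark 1.5-fold. Oasl2 (-0.85) and Ifit1 (-0.77) lie lowest, and 5 genes lie above 0.

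Against the other compounds the position of this group varied. The mean level was -0.25 to -0.01 on the BDB arrays, 0.04 to 0.21 on the DMSO arrays and -0.30 to -0.18 on the MEHP arrays, and the median difference between BDB and MEHP over 29 genes was 0.00. Of these 29, 2 were called lower in BDB than in MEHP, against 1.34% of all tested genes, and 0 higher, against 1.02%. Against DOM, 9 of 29 were called higher in BDB, against 11.7%, and 1 lower, against 13%. The mean level was 0.70 to 1.07 on the DINCH arrays, -0.62 to -0.35 on the DOM arrays and -0.05 to 0.06 on the DOS arrays. In BDB 23 of 31 genes were called lower than in DINCH, against 4.88% of all tested genes. Against DOS 0 of 30 were called higher (0.0168% of all tested genes) and 0 lower (0.0252%), with a median difference of -0.17.

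Among single genes, Fgd3, a guanine nucleotide exchange factor for Cdc42, had the smallest p of those higher. It read -1.64, -1.69, -1.49 and -1.76 in DMSO and -0.89, -0.83, -0.49 and -0.64 in BDB. The arrays were separate by 0.93 ± 0.11 (limma adjusted p = 0.0682). Nfil3, a repressor of the circadian clock, read 3.93, 3.21, 3.48 and 3.25 in DMSO and 4.37, 4.69, 4.31 and 4.73 in BDB. Edn1, which encodes the vasoconstrictor peptide endothelin, read -3.29, -3.58, -3.36 and -3.74 in DMSO and -2.23, -2.47, -2.68 and -2.49 in BDB. These differed by 1.05 ± 0.17 and 1.03 ± 0.13. Trmt61b, a methyltransferase of mitochondrial tRNA, was higher by 0.97 ± 0.12, Arid5a, an RNA-binding protein, by 0.90 ± 0.14, Traf1, an adaptor of TNF receptors, by 0.67 ± 0.10, and Slc25a29, a mitochondrial carrier, by 0.65 ± 0.11. 2410002F23Rik was higher by 0.76 ± 0.12. Genes more than 1.5-fold higher with no overlap were 73, or 0.61% of those tested, and 54, or 0.451%, were likewise lower.

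Dach2, a transcriptional cofactor that works with Eya proteins, had the largest difference among the 12 leading genes that were lower, -1.49 ± 0.21. It read -3.43, -2.88, -3.22 and -3.09 in DMSO and -4.56, -4.20, -4.55 and -5.27 in BDB, but was well above background on only 1 of the BDB arrays, so its lower level is near the background. Six4, a transcription factor of the same network, differed by -0.34 ± 0.09, with no overlap. Hexim1, an inhibitor of the elongation factor P-TEFb, read -0.88, -0.56, -0.58 and -0.64 in DMSO and -1.64, -1.41, -1.47 and -1.43 in BDB. It differed by -0.82 ± 0.10, with no overlap. Med12, a subunit of the Mediator kinase module, differed by -0.99 ± 0.14 and by -1.68 on another probe. That other probe was dim, with a DMSO mean of -3.14, so the size of its difference is less certain. Narf (-0.87 ± 0.12) and Ankrd37 (-0.83 ± 0.11) followed, and then Slc17a9 (-0.82 ± 0.12), a nucleotide transporter, Nipal3 (-0.76 ± 0.12), Gprasp1 (-0.76 ± 0.13), Pramel12 (-0.65 ± 0.09), Arid2 (-0.61 ± 0.10), a subunit of a chromatin remodeller, and Sel1l (-0.59 ± 0.10).

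**Figure D4:**
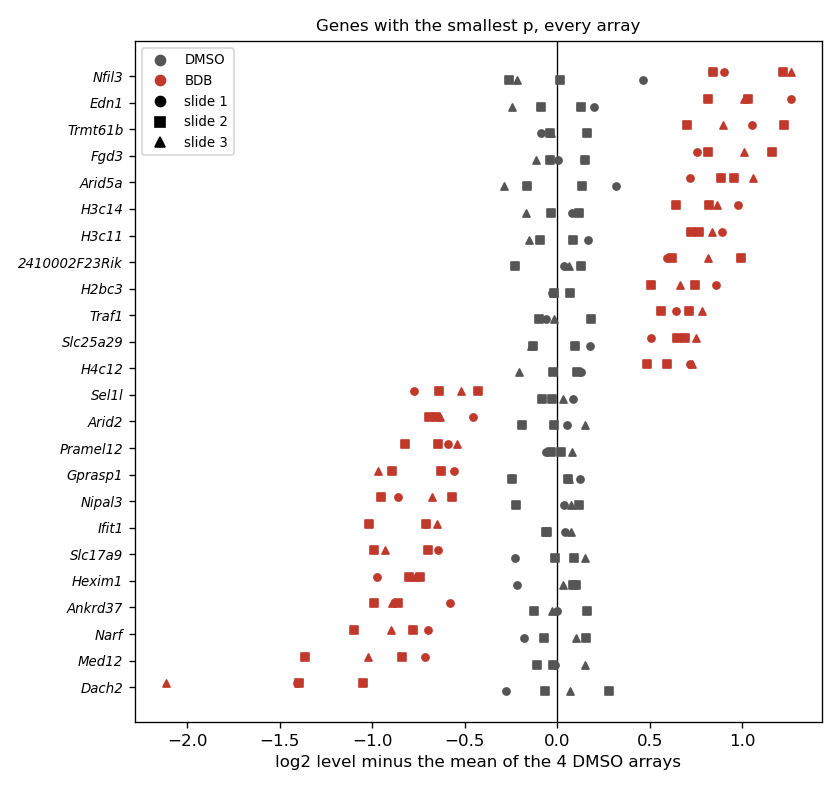
Log2 level minus the mean of the 4 DMSO arrays (x axis) on each array, for the 12 genes higher and the 12 lower in BDB that had the smallest p among those more than 1.5-fold apart with no overlap, with slide as the marker shape. The BDB arrays (red) are separate from the DMSO arrays (grey) in each row by the rule that chose the genes, and Dach2 reaches the lowest values.

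Ankrd37 and Narf are both induced by low oxygen through HIF1, and a list of 47 such genes was put together after they had been seen. Of 42 tested, 14 were above 0, where 42.8% of all genes were, and the median was -0.12. At an unadjusted p below 0.05, 13 were lower, against 10.8% of all genes, and 2 were higher, against 5.51%. Kdm3a, a histone demethylase, differed by -0.64 ± 0.11, Ak4, a mitochondrial adenylate kinase, by -0.63 ± 0.12, Bnip3 by -0.46 ± 0.10 and Pdk1, which holds pyruvate dehydrogenase inactive, by -0.38 ± 0.09. Slc2a1, the glucose transporter GLUT1, differed by -0.47 ± 0.12. On the other side, Hk2, a hexokinase, was higher by 0.61 ± 0.21 and Slc2a3 by 0.36 ± 0.15. Without the 4 members among the leading genes the median was -0.10, and 9 of 38 were lower. For Ak4 another probe gave 0.03. The mean level of the list was 2.82 to 2.91 on the BDB arrays and 2.88 to 3.04 on the DMSO arrays. It was 2.67 to 2.84 on DINCH, 2.76 to 2.86 on DOM, 2.89 to 2.94 on MEHP and 2.92 to 3.04 on DOS.

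Chaperone genes held several lower members. Of 21 unfolded protein response genes 5 were above 0, with a median of -0.16. At an unadjusted p below 0.05, 6 were lower, against 10.8% of all genes, and in 8 all BDB arrays read below all DMSO arrays, against 8.66%. Their mean level was 3.77 to 3.89 on the BDB arrays and 3.99 to 4.06 on the DMSO arrays. It was 3.83 to 3.91 on MEHP, 3.88 to 4.02 on DOM, 3.87 to 4.03 on DOS and 3.98 to 4.33 on DINCH. Sel1l and Syvn1, which together remove misfolded proteins from the endoplasmic reticulum, differed by -0.59 ± 0.10 and -0.38 ± 0.10, and the chaperones Dnajb9 and Hsp90b1 by -0.29 ± 0.10 and -0.24 ± 0.10. Among 15 heat shock response genes the median was -0.08, and the same 10.8% and 8.66% stand beside 4 that were lower at that p, all with no overlap. Bag3, a co-chaperone, read 3.24, 3.30, 3.24 and 3.43 in DMSO and 2.70, 2.68, 2.84 and 2.79 in BDB. It differed by -0.55 ± 0.09 and passed with slide as a block at an adjusted p of 0.0463, although below 1.5-fold. Dnajb1, Hsph1 and Dnaja1 differed by -0.43 ± 0.08, -0.48 ± 0.11 and -0.48 ± 0.11. All 20 cytosolic aminoacyl-tRNA synthetases were tested, 19 were below 0 with a median of -0.11, and 3 (Wars, Nars and Lars) were lower at that p, a share near the 10.8% of all genes. Of 32 proteasome subunits 28 were below 0, where 42.8% of all genes were above 0, with a median of -0.10. The interval of each lay within 1.5-fold, as it did for 80.2% of all genes.

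Early response genes and stress genes held the larger single differences in the other direction, with a wide spread. Of 23 immediate early genes 7 were higher at an unadjusted p below 0.05, against 5.51% of all genes, and 2 lower, against 10.8%. Their median was 0.09, and it was -0.03 within slide 1, 0.29 within slide 3, 0.14 without DMSO replicate 1 and 0.04 without BDB replicate 4 or DMSO replicate 2. Atf3, a transcription factor of acute stress, read 3.08, 1.96, 2.13 and 2.37 in DMSO and 3.42, 3.73, 2.93 and 3.61 in BDB. The groups overlapped through the DMSO array of slide 1, and the difference was 1.04 ± 0.25 (limma adjusted p = 0.117). Ddit3, which encodes CHOP, differed by 0.90 ± 0.21 and Gadd45a, a growth arrest gene, by 0.83 ± 0.22, both with overlap. Myc differed by 0.62 ± 0.17 and Jun by 0.68 ± 0.23, whereas Srf, which drives many of these genes, differed by -0.42 ± 0.12, and by -0.12 on another probe. Ccn2, a matricellular protein gene of the YAP output, read 4.85 to 6.36 in DMSO and 6.25 to 6.95 in BDB. The groups met only at DMSO replicate 1, and the gene differed by 1.13 ± 0.30 and passed with slide as a block at an adjusted p of 0.0463. The cytokines Il11 and Il6 were higher by 0.60 ± 0.14 and 0.70 ± 0.20, and Il6 was well above background on only 1 DMSO array. Both are in the list of inflammatory secreted genes, which also holds Ccl5, lower in BDB. Over the alternative settings, 2 to 6 members of that list were higher at an unadjusted p below 0.05 and 1 to 3 lower. Its median lay between -0.10 and 0.23. Among 21 p53 targets 5 were higher, against 5.51% of all genes, and 5 lower, against 10.8%.

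**Figure D5:**
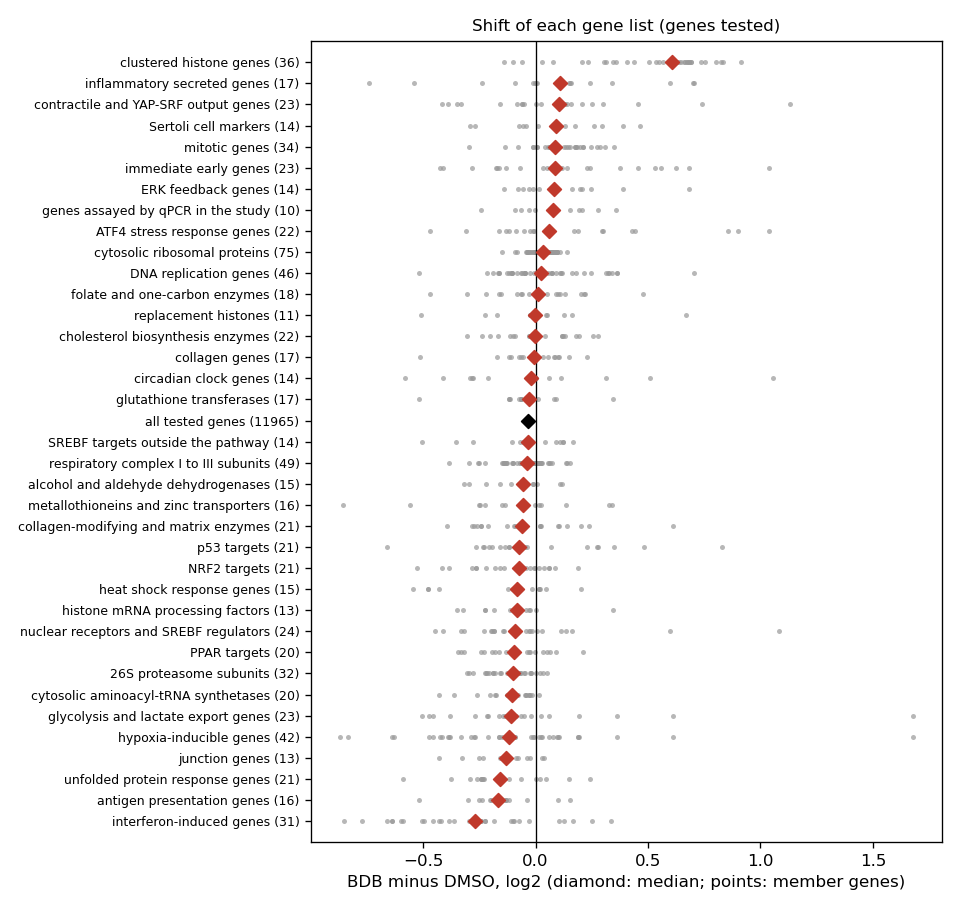
Median difference between BDB and DMSO (log2, diamonds) of each gene list with at least 10 tested genes, with the member genes as points and the number tested in brackets, and the median of all 11965 tested genes in black. The clustered histone genes (0.60) lie apart from the other lists, and the interferon-induced genes (-0.27) lie lowest.

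The study followed sterol and lipid genes, and a set of genes assayed by qPCR. Cholesterol biosynthesis enzymes had a median of -0.00, with 11 of 22 above 0 and 0 at an unadjusted p below 0.05 in the fit without a block. Their intervals lay within 1.5-fold for 19 of the 22, as they did for 80.2% of all genes. Mvd, the decarboxylase of the mevalonate pathway, read 3.01, 3.18, 2.95 and 3.09 in DMSO and 3.56, 2.58, 3.10 and 2.88 in BDB, with a difference of -0.03 ± 0.18. Pmvk, the kinase 1 step before it, differed by 0.28 ± 0.15 and Fdps by 0.19 ± 0.11. Of 20 PPAR targets 5 were lower at that p, against 10.8% of all genes, and 0 higher, against 5.51%, with a median of -0.10. Plin2, a lipid droplet protein, differed by -0.33 ± 0.11, with no overlap. Pdk4 read -1.47, -1.47, -1.54 and -1.30 in DMSO and -1.51, -1.82, -1.82 and -1.59 in BDB, with overlap and a difference of -0.24 ± 0.10. Angptl4, a secreted inhibitor of lipoprotein lipase, differed by -0.00 ± 0.32. Mapk12 was higher by 0.36 ± 0.12, Egfr by 0.15 ± 0.13 and Mras by 0.20 ± 0.10, and Gsta4 differed by -0.06 ± 0.17. For Mras another probe gave -0.41, and for Egfr the other probes gave -0.06 and 0.03. Hprt, the reference gene of the qPCR, differed by -0.09 ± 0.10.

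At the same dose and time, these 2 lists were lower in BDB than in MEHP. All 22 cholesterol enzymes were below 0 in that comparison, 14 were called, and the median was -0.66. Of 20 PPAR targets 7 were called higher in MEHP, with a median of -0.45, where 1.34% of all tested genes were called higher in MEHP. Pdk4 was at 2.13 to 2.22 on the MEHP arrays, and its difference from BDB was -3.86 (95% interval -4.06 to -3.65, limma adjusted p = 1.69e-07). Angptl4 differed by -3.27 (-3.85 to -2.69), Mvd by -1.30 (-1.74 to -0.86) and Pmvk by -0.996 (-1.31 to -0.69). The count of called genes in the lists was 9 to 22 when 1 array was left out, and it was 9 without BDB replicate 4 or MEHP replicate 2, 10 without BDB replicate 2 and 13 without MEHP replicate 4.

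The regulators of these lists and the genes of ester handling were also examined. Ppara differed by 0.14 ± 0.10, Pparg by -0.02 ± 0.10, Srebf1 by -0.32 ± 0.15 and Srebf2 by -0.02 ± 0.17. Among other nuclear receptors and regulators, Rara differed by -0.41 ± 0.12, Ahr by -0.45 ± 0.14 and Nfe2l2 by -0.23 ± 0.09, each with no overlap. For Rara another probe gave -0.01. Ppargc1a was higher by 0.60 ± 0.26, with overlap. The remaining tested members of that list had an unadjusted p above 0.05. Below that p, 10.8% of all tested genes were lower and 5.51% were higher. Ppard differed by 1.08 ± 0.90 because DMSO replicate 4 read -2.22 and the other DMSO arrays 2.12 to 2.36, and without that array the difference was -0.03. Of 27 carboxylesterases and other ester hydrolases 8 were tested, with 0 at an unadjusted p below 0.05. Of 15 tested alcohol and aldehyde dehydrogenases, the family that oxidises butanediol, only Aldh6a1 had such a p (-0.29 ± 0.13). None of 7 genes for the activation of benzoate and its conjugation to glycine was tested, since none passed the filter. The NRF2 targets Gclc, Gclm and Me1, genes of glutathione and NADPH supply, differed by -0.42 ± 0.12, -0.39 ± 0.13 and -0.26 ± 0.08, and 4 of 21 targets were lower, against 10.8% of all genes. Tiparp was higher by 0.26 ± 0.11, and 4 of 10 aryl hydrocarbon receptor targets were tested.

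Sertoli cell markers had a median difference of 0.09 over 14, with differences of both signs. The intervals of Inhba, Inha, Kitl, Gata4, Rhox8 and Inhbb reached beyond 1.5-fold, so a change of that size in them was not excluded. The intervals of the other markers lay within 1.5-fold. Sox9, a testis-determining factor, read -2.98, -3.05, -3.20 and -3.21 in DMSO and -3.56, -3.32, -3.35 and -3.38 in BDB. Its difference was -0.29 ± 0.10, with no overlap. Inhba, an activin subunit, was higher by 0.46 ± 0.18, with overlap. Gata4 differed by 0.26 ± 0.18, Dhh by 0.17 ± 0.09, Kitl by 0.39 ± 0.27, Inha by 0.30 ± 0.15, Rhox8 by -0.27 ± 0.21 and Inhbb by 0.13 ± 0.34. For Rhox8 another probe gave 0.05 ± 0.10. Gata6, Vim, Nr5a1, Rhox5 and Dmrt1 differed by -0.07 to 0.10. Of 13 tested junction genes 11 were below 0, where 42.8% of all genes were above 0. Ctnnb1, which encodes β-catenin, differed by -0.43 ± 0.09 and Ctnna1 by -0.33 ± 0.14. No other member had an unadjusted p below 0.05, and 10.8% of all genes were lower at that p.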

How the data were processed

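Gene expression was measured in 23 samples, 8 of which (4 BDB and 4 DMSO) make up the main comparison. The authors labelled cRNA with Cy3, hybridized it to Agilent 8x60K mouse arrays and extracted spot intensity values with Feature Extraction, and the deposited scanner files hold that processed intensity, which is background-subtracted. The deposited table of the authors holds log2 values shifted to the 75th percentile and centred on the median of all samples, and was used as an alternative. The submitters named the replicates biological, but no source used here ties a number to a culture, so p-values measure the spread between samples.

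The processed signal was averaged over the spots of a probe without outlier spots, taken to log2, and shifted to the 75th percentile of the non-control probes of its array. The test took in probes above the 20th percentile that Feature Extraction marked well above background on every array of BDB, of DMSO, or of both. Groups were compared with limma 3.58.1 in R 4.3.3, 2-sided, with Benjamini-Hochberg adjustment. The authors' methods likewise set each compound against DMSO with a moderated statistic and a 1.5-fold threshold. Symbols are those of the RefSeq table of GRCm38.p6, and the number of arrays limits the precision. The test was checked on simulated data.

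The deviations of same-numbered BDB and DMSO arrays from their group means correlated at 0.25 to 0.43, and those arrays lay side by side on a slide. The replicate number is therefore a possible pairing seen in the data, not given by a source. The main test did not use it, and it was fitted as a block only as an alternative. No 2 arrays of a group held identical values.

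The genes named were the 12 with the smallest p in each direction that were more than 1.5-fold apart with no overlap, up to 3 of each list at an unadjusted p below 0.05, the study's qPCR genes, PPAR and SREBF genes, Dach2 and Sertoli markers. Others, among them the members of the histone, interferon and hypoxia lists beyond these, were named after their values were seen. The lists and the comparison itself were chosen with earlier results of these data known, and the lists of clustered and replacement histones, histone transcript processing and hypoxia-inducible genes after the values were seen. Alternatives covered background correction, normalization, filters, blocks, variance trend, outlier spots, the deposited table, single slides and each array left out. Results for some genes of the lists are not reported here.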

Additional observations from a re-analysis of the deposited data

Results flagged for a closer look

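For each named gene and list, the highest or lowest of the 4 arrays of a group was set apart when its gap to the next array exceeded Dixon's critical share of the range of the group. This marked 14 of 260 groups, 7 in BDB and 7 in DMSO, and chance marks about 1 in 20. Ppard read -2.22 on DMSO replicate 4 and 2.12 to 2.36 on the other DMSO arrays. In DMSO, Oasl2 read 0.60 and Mmp11 3.25 on replicate 4, Wars 6.00 and Hprt 5.62 on replicate 1, Gbp3 -1.43 on replicate 3 and H2bc3 -2.57 on replicate 2, each above the other 3 arrays. In BDB, Acadl read 1.70, Bnip3 4.12 and Uqcrh 6.88 on replicate 1, Slc2a1 3.32 on replicate 3 and H2-K1 5.05 on replicate 4, each above the others, while Mras read 1.51 on replicate 3 and Ppara 0.15 on replicate 2, each below the others. The cause of these differences was not tested.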

How the results depend on the processing

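The count of 0 called genes became 42 with normexp background correction, 100 with slide as a block, 120 with all groups in 1 fit, 19 with the brightest probe only, 82 with a variance trend and 106 at an adjusted p below 0.10 (the last chosen after seeing the data). It stayed at 0 when any 1 array was left out and with the replicate block, which gave 5025 probes at an unadjusted p below 0.05 against 3494. With the brightest probe only, 2158 probes had an unadjusted p below 0.05 and 9703 an interval within 1.5-fold, of 11965 tested. Leaving out 1 array gave 2729 to 3841 and 16816 to 18123, against 3494 and 18299. The count of 21 genes of the cholesterol and PPAR lists called higher in MEHP became 3 without a filter, 10 with detection on at least 1 array, 0 within slide 1, 2 within slide 2, 18 with the replicate block, and 9 to 22 when 1 array was left out. The median of the clustered histone genes lay between 0.45 and 0.92 and that of the interferon-induced genes between -0.40 and -0.18 over all settings. Of 122 named genes 35 were called under at least 1 setting, and 13 changed sign. With quantile normalization Angptl4 was 0.0432, Mvd 0.00419 and Srebf2 0.00222. With normexp Pparg was 0.0312, Gsta4 2.95e-05 and Srebf2 0.0258, and with outlier spots kept Pparg was 0.00237. Within slide 2 Rhox5 was -0.24, Ppara -0.00755, Nr5a1 -0.0152, Dmrt1 -0.0435 and Ppard -0.17. When 1 array was left out, the range was -0.0733 to 0.0359 for Pparg, -0.21 to 0.0490 for Gsta4, -0.22 to 0.28 for Angptl4, -0.21 to 0.12 for Mvd, -0.0704 to 0.22 for Rhox5, -0.13 to 0.12 for Srebf2, -0.14 to 0.0175 for Vim, -0.13 to 0.0125 for Gata6, -0.00293 to 0.16 for Nr5a1, -0.13 to 0.43 for Inhbb, -0.0884 to 0.0822 for Dmrt1 and -0.0313 to 1.49 for Ppard. The cause of these changes was not tested. Genes near background, such as Dach2, have the least certain size.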
